A study of Ciona savignyi with 56 samples.

Results

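The animal neural-restricted genes of the 110-cell Ciona savignyi embryo were 2 genes, ENSCSAVG00000006812 and ENSCSAVG00000010848, out of 12172 in the count matrix. They were chosen by their level in the 110-cell embryos. The 297 cells with a class were pooled into 10 groups: animal neural cells, and the other 9 (endoderm, notochord, nerve cord, muscle, mesenchyme, epidermis, and the blastomeres A7.6, B7.5 and B7.6). A gene was taken when it reached at least 30 counts per 1000000 counts (CPM) in the 48 animal neural cells and when its CPM plus 5 was at least 2.5 times that of each other group. A run of 42 genes with neighbouring identifiers was left out. Of the 12172 genes, 4844 reached 30 CPM in the animal neural cells. No table given here pairs these identifiers with names, so both are described by identifier, their molecular roles are not stated, and the labelled cell types could not be checked against named marker genes.

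Each library came from blastomeres of Ciona savignyi, a sea squirt, picked by hand with a capillary from single trypsin-dissociated embryos and read by a Smart-seq2 protocol with barcoded primers. The groups used here were 2 embryos grown in 2 ug/ml U0126 and taken at the 64-cell stage, and 8, 5, 3, 3, 2, 2, 3 and 3 untreated embryos of the 1-, 2-, 4-, 8-, 16-, 32-, 64- and 110-cell stages. No genotype or transgene was given; parents were collected from the sea. U0126 blocks MEK, the kinase between the fibroblast growth factor (FGF) receptor and ERK. The labels give no vehicle control for it.

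The animal side of an ascidian embryo makes epidermis and part of the nervous system. In Ciona, FGF from vegetal cells induces neural fate in a few animal cells through MEK and ERK, and neighbouring animal cells become epidermis. The anterior or a-line neural cells contribute to the brain and the anterior sensory region, and the posterior or b-line neural cells to the dorsal row of the tail nerve cord and to the neural plate border. Vegetal A-line cells make the rest of the nerve cord, and here form a group of their own.

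Columns of the 2-, 4-, 110- and untreated 64-cell embryos hold UMI counts, in which a molecular tag marks the copies of 1 molecule, and those of the 1-, 8-, 16-, 32-cell and U0126 embryos hold read counts. The median total was 29297 UMIs per cell in 110-cell embryos, 36433 UMIs in untreated 64-cell embryos and 154614 reads in U0126 embryos. The embryo was the replicate. All 48 primer barcodes recur in more than 1 of the 41 libraries, and each cell is identified by library and barcode together. Cells were assigned to classes by the authors, and how this was done is not given in the sources used here. Whether these genes took part in that assignment cannot be told apart from the lineage of the cells, and this limit applies to each comparison between classes below.

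The pooled level of ENSCSAVG00000006812 was 194.9 CPM in the animal neural cells, and its CPM plus 5 was 22.9 times that of the next group. For ENSCSAVG00000010848 the pooled level was 138.3 CPM in the animal neural cells and 22.7 CPM in the epidermis, the next group, a ratio of 5.17. Among genes at 30 CPM or more, those just outside the threshold of 2.5 were ENSCSAVG00000002586, at 44.8 CPM with a ratio of 2.34, ENSCSAVG00000011582, at 141.4 CPM with a ratio of 1.88, and ENSCSAVG00000003151, at 43.2 CPM with a ratio of 1.72. ENSCSAVG00000001033 had a ratio of 2.06 but stood at 28.3 CPM, below both limits. These ratios are what chose the genes and carry no test.

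Chosen on any 2 of the 3 110-cell embryos, the list kept both genes, and it gained 1 gene (ENSCSAVG00000001033) without embryo 1, 2 (ENSCSAVG00000002586 and ENSCSAVG00000003151) without embryo 2 and none without embryo 3. In the embryo left out each time, ENSCSAVG00000006812 had 147.0 CPM in the animal neural cells of embryo 1, 176.1 CPM in embryo 2 and 263.0 CPM in embryo 3, higher than in any other group. ENSCSAVG00000010848 had 137.9, 163.6 and 101.6 CPM in the animal neural cells of those embryos and was also highest there, but in embryo 3 the notochord was next and the ratio was 2.48, below the 2.5 of the rule. Of the 3 gained genes, ENSCSAVG00000001033 and ENSCSAVG00000003151 were not highest in the animal neural cells of the embryo left out (15.3 CPM, against 15.4 CPM in endoderm, and 39.1 CPM, against 45.7 CPM in A7.6), and ENSCSAVG00000002586 was (39.1 CPM, against 31.8 CPM in epidermis). Of all genes with a count, 8.53%, 7.47% and 8.51% were highest in the animal neural cells of embryos 1, 2 and 3.

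The pair divided the animal neural cells between them: ENSCSAVG00000006812 was a gene of the posterior (b-line) cells and ENSCSAVG00000010848 a gene of the anterior (a-line) cells. ENSCSAVG00000006812 had 0, 5.75 and 0 CPM in the a8.17/18/19/20/25/26 cells of the 3 embryos, against 272.1, 452.7 and 491.9 CPM in the b8.17-20 cells. The lowest b-line value was far above the highest a-line value. The mean was 1.92 ± 3.32 CPM in the a-line and 405.6 ± 117.3 CPM in the b-line (SD, n = 3 each). Pooled over embryos, the b-line level was 139.7 times the a-line level, and with only 2 UMIs in the a-line its 95% interval ran from 38.3 to 1160 times (exact conditional binomial, which covers counting error only).

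ENSCSAVG00000010848 had the opposite pattern. It had 300.0, 255.8 and 207.0 CPM in the a-line neural cells of the 3 embryos, against 0, 14.0 and 9.74 CPM in the b-line neural cells. The groups did not overlap here either, and the share of all genes of which this holds was not counted. The mean was 254.3 ± 46.5 CPM in the a-line and 7.91 ± 7.18 CPM in the b-line (SD, n = 3 each), and the pooled a-line level was 30.1 times the b-line level (95% interval 12.7 to 94.0).

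Both differences between a-line and b-line neural cells passed the test across all genes, in edgeR's quasi-likelihood fit of the 110-cell classes with the embryo as a block and Benjamini-Hochberg adjustment. The log2 fold change, a-line over b-line, was -7.05 for ENSCSAVG00000006812 (SE 0.79, adjusted p = 7.37e-10) and 4.81 for ENSCSAVG00000010848 (SE 0.69, adjusted p = 7.52e-07). Over the 5159 genes tested, 0.407% were called, 10 higher and 11 lower in the a-line. The rule used the sum of both lines and not their difference, but a gene high in 1 line could pass it as well as a gene high in both. The test drew on the same UMIs that chose the genes, so its p-values describe them and are no independent support. With DESeq2 on all classes the adjusted p of ENSCSAVG00000006812 was 1, and with DESeq2 on the neural classes alone, chosen after seeing the data, it was 1.36e-06.

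**Figure D1:**
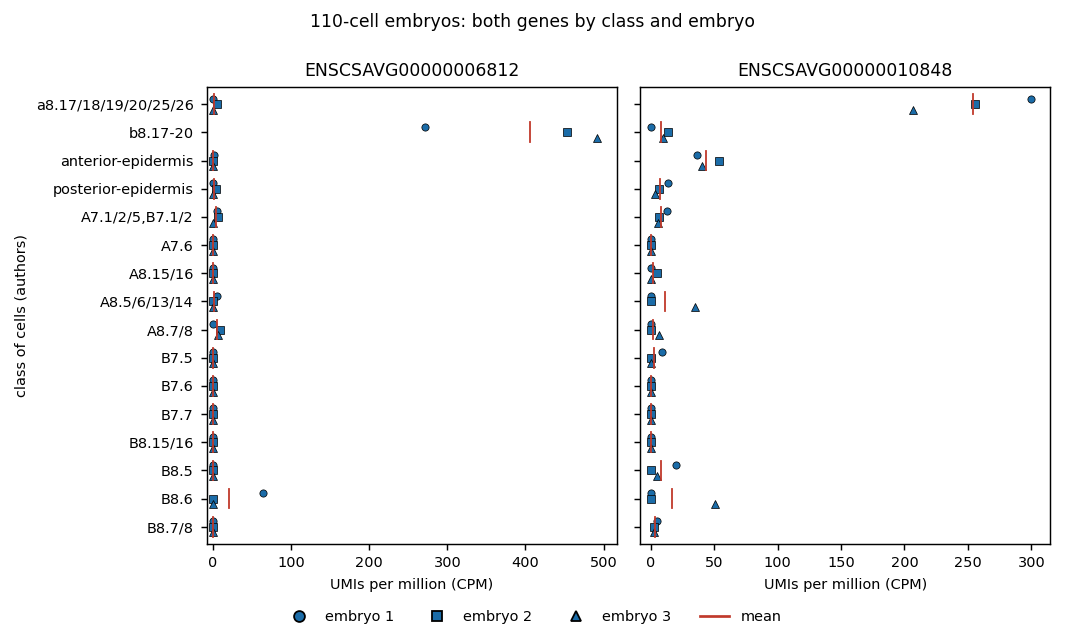
CPM of ENSCSAVG00000006812 (left) and ENSCSAVG00000010848 (right) in each of the authors' classes of the 110-cell embryos, 1 point per embryo and a red bar for the mean. The first gene stands at 272.1 to 491.9 CPM in the b8.17-20 cells and at 0 to 5.75 CPM in the a-line neural cells; the second stands at 207.0 to 300.0 CPM in the a-line neural cells, with the anterior epidermis next at 36.3 to 53.9 CPM.

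The division held cell by cell. All 24 a-line neural cells carried more UMIs of ENSCSAVG00000010848 than of ENSCSAVG00000006812, and all 24 b-line neural cells carried more of ENSCSAVG00000006812. In the a-line cells ENSCSAVG00000010848 ranged from 1 to 20 UMIs with a median of 6, or 41.0 to 438.5 CPM with a median of 240.6 CPM. In the b-line cells ENSCSAVG00000006812 ranged from 1 to 30 UMIs with a median of 8, or 40.5 to 1078 CPM with a median of 368.8 CPM. No neural cell lacked both genes, and 4 of the 48 carried both. Those 4 were 2 a-line cells with 1 UMI each of ENSCSAVG00000006812 and 2 b-line cells with 2 and 3 UMIs of ENSCSAVG00000010848. Median totals were close, at 24280 UMIs per a-line cell and 24686 per b-line cell. After thinning every cell to 10000 UMIs, ENSCSAVG00000010848 was seen in 22 of 24 a-line cells and 0 of 24 b-line cells, and ENSCSAVG00000006812 in 0 of 24 a-line cells and 23 of 24 b-line cells.

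**Figure D2:**
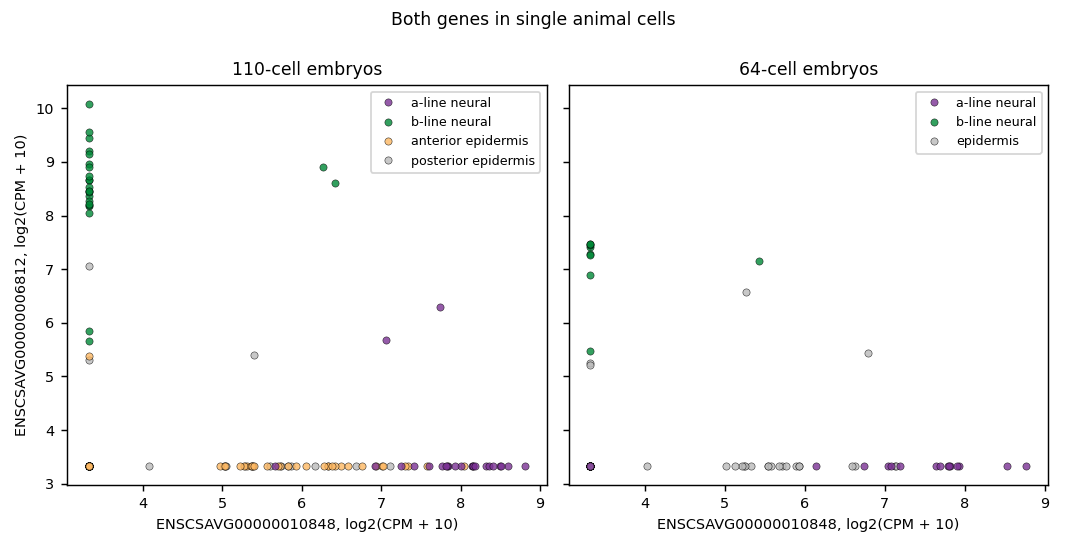
Each point is 1 animal cell of the 110-cell (left) or untreated 64-cell (right) embryos, placed by log2(CPM + 10) of ENSCSAVG00000010848 (x axis) and ENSCSAVG00000006812 (y axis) and coloured by class; cells with no UMI of a gene lie at the low end of its axis. Most a-line neural cells lie along the x axis and most b-line neural cells along the y axis, and the epidermal cells with a UMI lie mainly along the x axis at lower values, overlapping the a-line cells.

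Outside the neural cells ENSCSAVG00000006812 was rare at 110 cells. It was at 0 in the muscle, mesenchyme, A7.6, B7.5 and B7.6 cells of every embryo. The endoderm had 5 UMIs in 3 of 29 cells, the notochord 2 UMIs in 2 of 25 cells, the nerve cord 2 UMIs in 2 of 22 cells and the epidermis 5 UMIs in 4 of 123 cells. Group means over embryos lay between 1.26 ± 1.36 CPM in epidermis and 3.95 ± 3.51 CPM in endoderm, which does not separate these 4 groups beyond their spread. The highest value of any other class, 63.7 CPM in the B8.6 cell of embryo 1, was a single UMI in a cell of 15709 UMIs.

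ENSCSAVG00000010848 had a second, lower site in the epidermis. The epidermis averaged 23.2 ± 4.45 CPM, the highest group after the neural cells of both lines pooled, at 134.4 ± 31.2 CPM (SD, n = 3 each). No value of the pooled epidermis reached one of the pooled neural cells. The rule chose the gene by this difference in the same cells, so the gap is a description. Within the epidermis the anterior cells had 36.3, 53.9 and 40.7 CPM, against 13.3, 6.91 and 3.11 CPM in the posterior cells of embryos 1, 2 and 3. The lowest anterior value lay above the highest posterior value, and 32 of 56 anterior cells carried a UMI, against 12 of 67 posterior cells. Each anterior value also lay above the 0, 14.0 and 9.74 CPM of the b-line neural cells, where 2 of 24 cells carried a UMI. Median totals were 28261 UMIs in anterior cells and 25968 in posterior cells, and after thinning the shares were 19 of 56 and 3 of 66 cells.

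The anterior over posterior log2 fold change of ENSCSAVG00000010848 in the epidermis was 2.58 (SE 0.59, edgeR adjusted p = 0.0134), where 0.291% of 5159 genes were called. This contrast was added after seeing the data. The call was lost without embryo 2 or embryo 3: the adjusted p was 0.533 without embryo 2 and 0.933 without embryo 3, with log2 fold changes of 2.39 and 2.20.

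The remaining counts of ENSCSAVG00000010848 at 110 cells sat in few cells. The notochord had 8 UMIs in 2 of 25 cells, 6 of them in 1 A8.5/6/13/14 cell of embryo 3. The endoderm had 11 UMIs in 5 of 29 cells, with up to 5 in 1 cell. A7.6 and B7.6 cells had none. The endoderm had 12.9, 6.70 and 5.87 CPM in embryos 1, 2 and 3, from 5, 3 and 3 UMIs. Each value lay above the highest of nerve cord (3.80 CPM) and of muscle (3.37 CPM). The notochord, with a mean of 12.7 CPM and 2 of 3 embryos at 0, overlapped the endoderm. So did the mesenchyme, at 13.5, 0 and 2.39 CPM, and B7.5, at 8.72 CPM in embryo 1 and 0 in embryos 2 and 3.

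At the 64-cell stage, in embryos that the rule did not use, each gene already stood in its own line. ENSCSAVG00000006812 had 0 UMIs in the 15 a7.9/10/13 cells, which allows up to 6.34 CPM at 3 counts over the class, against 34.2, 142.0 and 160.4 CPM in the b7.9/10 cells of embryos 1, 2 and 3. Embryo 1 gave only 1 b7.9/10 cell, with 1 UMI. All 9 b-line cells carried the gene, at 1 to 11 UMIs, and the pooled b-line level was at least 22.3 times the a-line floor. ENSCSAVG00000010848 had 185.0, 224.9 and 163.0 CPM in the a-line cells and 0, 0 and 6.17 CPM in the b-line cells, where the only count was 1 UMI. It was seen in 14 of 15 a-line cells, and the pooled a-line level was 57.8 times the b-line level (95% interval 10.1 to 2309).

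These 64-cell line differences passed the test and were taken from the fit of all 64-cell classes after seeing the data. Each gene passed the filter on low counts only through the line where it is high. In any other class and embryo ENSCSAVG00000006812 reached at most 7.95 CPM and ENSCSAVG00000010848 at most 33.2 CPM. The p-values therefore describe these differences and are no independent support. The a-line over b-line log2 fold change was -7.73 for ENSCSAVG00000006812 (SE 1.36) and 5.90 for ENSCSAVG00000010848 (SE 1.02), each with an edgeR adjusted p of 2.71e-04, where 0.116% of 5162 genes were called. The fitted size for ENSCSAVG00000006812, with no UMI in the a-line, depends on the prior count and is no bound. The calls were sensitive to the embryos: without embryo 2 the adjusted p was 0.0619 for ENSCSAVG00000006812 and 0.0837 for ENSCSAVG00000010848, and without embryo 3 it was 0.0959 for ENSCSAVG00000010848, while ENSCSAVG00000006812 was removed by the filter on low counts. With only the neural and epidermis classes fitted, the filter also removed ENSCSAVG00000006812. DESeq2 on all classes gave 0.259 and 0.865 for ENSCSAVG00000006812 and ENSCSAVG00000010848.

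Against the 64-cell epidermis each gene was higher in its own neural line. ENSCSAVG00000006812 averaged 112.2 ± 68.2 CPM in the b-line cells and 1.95 ± 2.41 CPM in the epidermis (SD, n = 3 each), where 4 of 66 cells had a UMI. The log2 fold change was 5.66 (SE 0.80, edgeR adjusted p = 6.50e-07), where 0.291% of 5162 genes were called. Without embryo 1 or embryo 2 the edgeR adjusted p was 2.27e-05 to 0.0127. Without embryo 3, or with only the neural and epidermis classes fitted, the filter on low counts removed the gene. ENSCSAVG00000010848 averaged 191.0 ± 31.4 CPM in the a-line cells and 16.7 ± 14.3 CPM in the epidermis, where 22 of 66 cells had a UMI. Its log2 fold change was 3.68 (SE 0.56, edgeR adjusted p = 1.70e-05), where 0.194% of 5162 genes were called. Without 1 embryo the edgeR adjusted p was 4.38e-04 to 0.0374. Here too each gene passed the filter only through its own line, and the p-values are no independent support. The epidermis of embryo 3 held 33.2 CPM of ENSCSAVG00000010848, against 7.44 and 9.58 CPM in embryos 1 and 2, and the 64-cell epidermis has no anterior or posterior class. DESeq2 called neither gene, with adjusted p of 0.204 for ENSCSAVG00000006812 and 1 for ENSCSAVG00000010848.

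**Figure D3:**
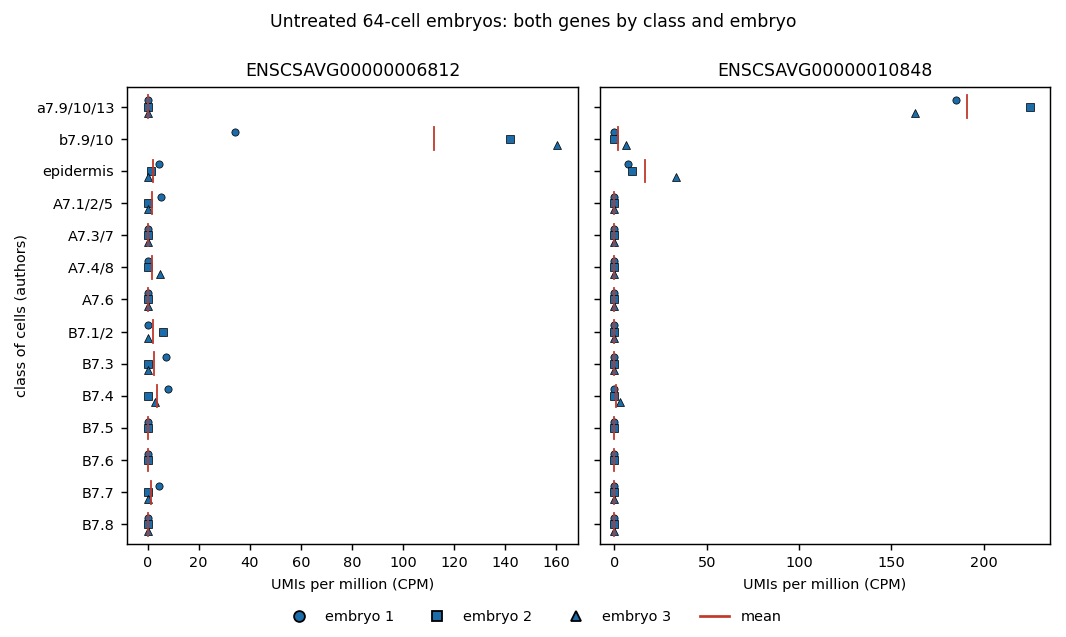
CPM of ENSCSAVG00000006812 (left) and ENSCSAVG00000010848 (right) in each of the authors' classes of the untreated 64-cell embryos, 1 point per embryo and a red bar for the mean. The b7.9/10 cells hold the first gene at 34.2 to 160.4 CPM and the a7.9/10/13 cells hold the second at 163.0 to 224.9 CPM; the next highest values are those of the epidermis for the second gene, at 7.44 to 33.2 CPM.

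Taken over both lines, the contrast of 64-cell neural cells with epidermis averaged the lines on the log scale. For a gene with 0 or 1 UMI in 1 line, that average depends on the prior count of the fit. The SE of 12.75 for ENSCSAVG00000006812 comes from a small F statistic and is no measure of precision. ENSCSAVG00000010848 had a log2 fold change of 0.73 (SE 1.17). The edgeR adjusted p was 1 for both, where 0.232% of 5162 genes were called. When the UMIs of both lines were summed before the fit, as the rule pools them and as an alternative added after seeing the data, the log2 fold change was 4.27 for ENSCSAVG00000006812 (SE 0.78, adjusted p = 3.25e-04) and 2.97 for ENSCSAVG00000010848 (SE 0.52, adjusted p = 1.29e-04), and 0.377% of 5572 genes were called. The summed call of ENSCSAVG00000006812 was lost without embryo 2 (adjusted p = 0.295), and without embryo 3 the filter on low counts removed the gene. That of ENSCSAVG00000010848 was lost without embryo 1 (0.0650) or embryo 2 (0.0512). DESeq2 called neither (0.651 for ENSCSAVG00000006812 and 0.282 for ENSCSAVG00000010848). Both genes passed the filter only through the neural cells in this fit too.

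Against the mean of all other 64-cell classes, on the log scale, neither gene passed. The log2 fold change was 2.80 for ENSCSAVG00000006812, with an F statistic too near 0 to give an SE and an edgeR adjusted p of 1. It was 4.59 for ENSCSAVG00000010848 (SE 1.46, edgeR adjusted p = 0.177), where 0.969% of 5162 genes were called. With all other cells summed, ENSCSAVG00000010848 was 4.23 higher on the log2 scale in the neural cells (SE 0.46, adjusted p = 4.17e-07; 0.998% of 6615 genes called), and ENSCSAVG00000006812 was removed by the filter on low counts. In the vegetal cells of these embryos ENSCSAVG00000006812 had 7 UMIs in 7 of 82 cells and ENSCSAVG00000010848 had 1 UMI in 1 cell.

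Between the 64- and 110-cell stages the level in the own line was 3.61 times as high for ENSCSAVG00000006812 (405.6 ± 117.3 CPM at 110 cells and 112.2 ± 68.2 CPM at 64 cells) and 1.33 times as high for ENSCSAVG00000010848 (254.3 ± 46.5 CPM at 110 cells and 191.0 ± 31.4 CPM at 64 cells). The 64-cell mean of ENSCSAVG00000006812 includes embryo 1, with 1 b7.9/10 cell and 1 UMI (34.2 CPM). Pooled over embryos, its levels were 412.8 CPM at 110 cells and 141.5 CPM at 64 cells. The embryo values of ENSCSAVG00000006812 did not overlap between stages, whereas those of ENSCSAVG00000010848 did. The share of all genes without such overlap was not counted. Since the rule selects for a high value at 110 cells, these ratios are a description.

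Neither gene was abundant before the 64-cell stage. Summed over whole embryos, ENSCSAVG00000006812 was at 0 in each of the 21 embryos from the 1-cell to the 16-cell stage, and 1 read was found in the 2 embryos of the 32-cell stage. It then reached 3.62, 7.51 and 11.8 CPM in the 64-cell embryos and 18.4, 25.9 and 23.9 CPM in the 110-cell embryos. The floor of 3 counts was 6.44 to 17.7 CPM in single 1-cell embryos (reads) and 14.0 to 32.7 CPM in 2-cell embryos (UMIs). A 0 in those embryos therefore does not show a level below that of the 64-cell embryos. In whole embryos a change in the share of cells of a type and a change of RNA per cell cannot be told apart. ENSCSAVG00000010848 had low counts throughout: 3.56 and 2.26 CPM in 2 of 8 1-cell embryos and 0 in the others, 7.81 CPM in 1 of 5 2-cell embryos (1 UMI), 5.21, 2.78 and 3.05 CPM at 4 cells (4 UMIs in all), 0 to 0.493 CPM at 8 cells, 0 and 2.52 CPM at 16 cells, and 1.38 and 0.574 CPM at 32 cells. It stood at 14.1, 13.4 and 24.9 CPM in the 64-cell embryos and 27.0, 32.9 and 19.1 CPM in the 110-cell embryos.

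The step to the 64-cell from the 4-cell stage, both in UMIs, did not pass the test for either gene. The log2 fold change was 6.83 for ENSCSAVG00000006812 (SE 2.25, edgeR adjusted p = 0.0662) and 2.24 for ENSCSAVG00000010848 (SE 0.85, adjusted p = 0.0892), where 9.84% of 6441 genes were called. With 0 UMIs in 3 4-cell embryos, ENSCSAVG00000006812 was at least 2.65 times as high at 64 cells as the 4-cell floor of 2.80 CPM. In single 4-cell embryos that floor was 7.81 to 9.15 CPM, above the 3.62 and 7.51 CPM of 64-cell embryos 1 and 2. With every gene that had a count in the fit, the edgeR adjusted p of ENSCSAVG00000006812 was 0.0335. Leaving out a 4-cell embryo gave 0.155 to 0.163. Without any 1 of the 64-cell embryos, or with only these 2 stages, the filter on low counts removed the gene. The step to the 32-cell from the 8-cell stage, both in reads, gave ENSCSAVG00000010848 a log2 fold change of 1.55 (SE 1.05, edgeR adjusted p = 0.879), where 1.4% of 6441 genes were called.

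At 32 cells the animal cells held 1 read of ENSCSAVG00000006812 in 36 cells, and the 29 vegetal cells held none. Of ENSCSAVG00000010848 they held 13 reads in 2 of 36 animal cells, 10 of them in 1 cell, against 4 reads in 2 of 29 vegetal cells. Both genes fell below the filter on low counts there, and the animal against vegetal contrast of the 32-cell embryos gave neither a test.

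**Figure D4:**
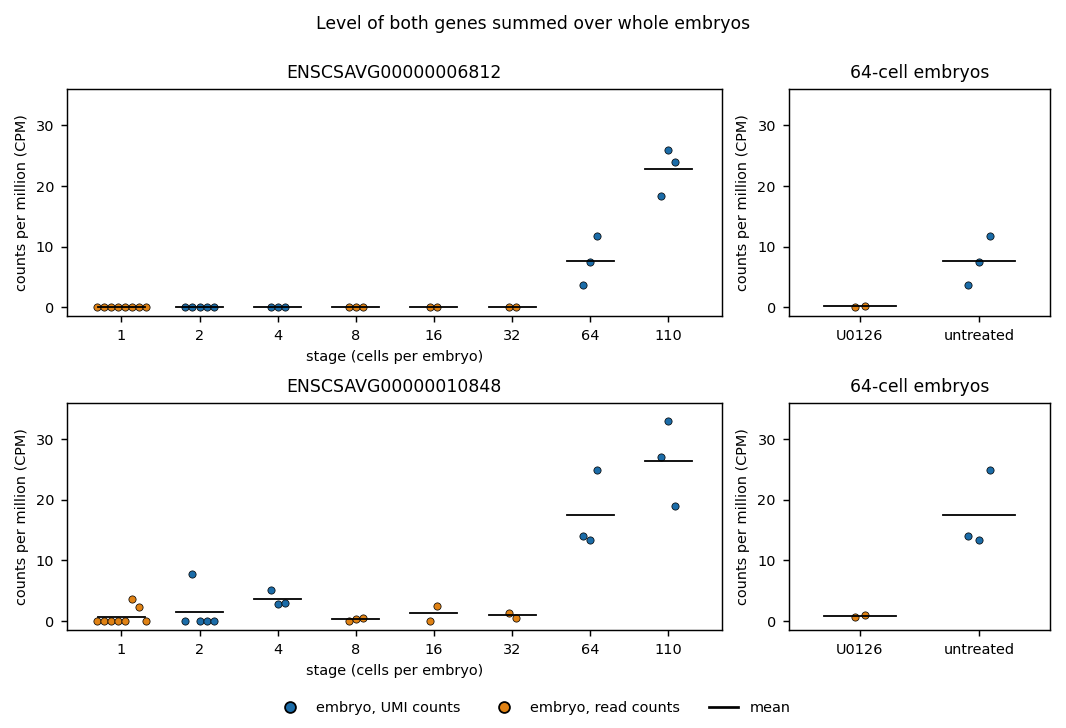
Level of ENSCSAVG00000006812 (top) and ENSCSAVG00000010848 (bottom) summed over whole embryos, in CPM, by stage (left) and in U0126 and untreated 64-cell embryos (right); 1 point per embryo, a bar for the mean, and colour for UMI or read counts. The 64-cell embryos without U0126 stand at 3.62 to 11.8 CPM and 13.4 to 24.9 CPM for the upper and lower gene, above every earlier stage, and the U0126 embryos at 0.0850 to 0.279 CPM and 0.595 to 0.929 CPM.

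In U0126 embryos both genes were nearly undetected. ENSCSAVG00000006812 had 0.0850 and 0.279 CPM in the 2 U0126 embryos, against 3.62, 7.51 and 11.8 CPM in the untreated 64-cell embryos. ENSCSAVG00000010848 had 0.595 and 0.929 CPM in U0126 embryos, against 14.1, 13.4 and 24.9 CPM in untreated embryos. No values overlapped, but the share of all genes of which this holds was not counted. The U0126 columns are reads and the untreated columns UMIs. The log2 fold change, U0126 over untreated, was -5.05 for ENSCSAVG00000006812 (SE 0.92, edgeR adjusted p = 0.0148) and -4.28 for ENSCSAVG00000010848 (SE 0.60, adjusted p = 0.00755). Over 7844 genes 15.2% were called, 587 higher and 604 lower. Leaving out either U0126 embryo ended both calls, with adjusted p from 0.0919 to 0.187 and 38 and 39 genes called in all. That leaves 1 U0126 embryo, assumed to vary like the untreated ones, and the log2 fold changes were then -4.45 and -5.91 for ENSCSAVG00000006812 and -3.99 and -4.59 for ENSCSAVG00000010848.

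The animal cells of the U0126 embryos, which the authors' table gives as 1 class with no neural subclass, held 4 reads of ENSCSAVG00000006812 in 4 of 63 cells, against 50 UMIs in 13 of 90 untreated animal cells. They held 3 reads of ENSCSAVG00000010848 in 3 of 63 cells, against 131 UMIs in 37 of 90 untreated cells. A UMI needs at least 1 read, so the U0126 cells cannot hold more UMIs than reads. Set on the UMI totals of the cell table, the U0126 animal cells reached at most 1.78 CPM for ENSCSAVG00000006812, against 14.4 CPM in untreated animal cells. For ENSCSAVG00000010848 they reached at most 1.34 CPM, against 37.7 CPM in untreated animal cells. Median UMI totals of the table were close, at 34830 per U0126 animal cell and 33105 per untreated one.

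A contrast within embryos removes the difference in unit between the groups as far as it acts on all cells alike. In the U0126 embryos ENSCSAVG00000010848 had 3 reads in the animal cells and 14 reads in 5 of 59 vegetal cells, against 131 UMIs in the animal and 1 UMI in the vegetal cells of untreated embryos. Within those 14 reads, 7 were in 1 B7.1/2 cell and 4 in 1 B7.4/5/8 cell, and reads of 1 cell may be copies of 1 molecule. With all animal and all vegetal cells summed, added after seeing the data, the animal over vegetal log2 fold change was -1.71 in U0126 embryos (edgeR adjusted p = 0.557) and 6.99 in untreated embryos (adjusted p = 3.60e-05), with 2.83% and 2.11% of 7589 genes called in U0126 and untreated embryos. Its difference, U0126 minus untreated, was -8.70 (SE 1.30, adjusted p = 0.00501), with 0.224% of 7589 genes called. With 1 vegetal UMI in the untreated embryos, the size of this difference depends on the prior count and its SE is no measure of precision. Without untreated embryo 3 the difference was -11.23 with an adjusted p of 0.0610. ENSCSAVG00000006812 had 4 reads in the animal and 0 in the vegetal cells of U0126 embryos, and 50 and 7 UMIs in those of untreated embryos. Its difference was 0.57 (SE 0.72, edgeR adjusted p = 0.949), which did not pass, and with 0 vegetal reads its size depends on the prior count. In the fit that averages the vegetal classes on the log scale, the interaction called 1 of 6814 genes (0.0147%), ENSCSAVG00000010848 had an adjusted p of 1 and ENSCSAVG00000006812 was filtered out.

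Other genes with a like pattern were ranked by Pearson's r of log2(CPM + 5) over 88 points, each 1 class of 1 untreated 64- or 110-cell embryo, among 11318 genes. The points share embryos, libraries and depth, and r is a description. The pair themselves had r = -0.0092. The mean of the pair was most like ENSCSAVG00000002003 (r = 0.718), followed by ENSCSAVG00000006216 (0.679), ENSCSAVG00000009448 (0.675), ENSCSAVG00000001425 (0.666) and ENSCSAVG00000007297 (0.647). ENSCSAVG00000002003 was not restricted to neural cells: it had 449.3 CPM in the a-line and 248.3 CPM in the b-line neural cells at 110 cells, and 456.1 and 430.3 CPM in the anterior and posterior epidermis.

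Taken singly, ENSCSAVG00000010848 was also most like ENSCSAVG00000002003 (r = 0.733). ENSCSAVG00000006812 was most like ENSCSAVG00000008788 (r = 0.724), which reached only 8.39 CPM in the b-line neural cells, and then ENSCSAVG00000003151 (r = 0.696), 1 of the genes just outside the rule. ENSCSAVG00000003151 had 136.8, 334.1 and 228.3 CPM in the b7.9/10 cells at 64 cells and 107.7, 102.7 and 68.2 CPM in the b8.17-20 cells at 110 cells. It was at 0 in the a-line neural cells of all 3 110-cell embryos and had 1 UMI in those of the 64-cell embryos. It was singled out by its likeness over these same classes, so its line difference is a description. The A7.6 cells at 110 cells, with 6 UMIs of it, kept it outside the list.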

How the data were processed

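The deposited counts are whole numbers for 773 cells and 12172 genes, beside a deposited table of each cell's library, embryo, stage, class, reads and UMIs. In 518 cells the count total equals the table's UMI number and in 255 its read number, which sets the kind of count. CASAVA 1.8, Seurat and DESeq2 appear in the submitters' processing notes. Neither an aligner, a genome build, an annotation nor a way of class assignment is given in the sources used here. Embryo numbers are unique to a group, and nothing says that embryos came from separate parents. In comparisons of stages and of whole U0126 embryos, p-values measure the spread between these embryos. In contrasts between classes, with the embryo as a block, they measure the spread that remains over the classes fitted within these embryos. The 31 low-quality cells stayed in sums per embryo and were left out of classes. Cells were picked singly by hand, and no doublet caller was run.

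CPM is the count over the cell, class or embryo total. Tests used edgeR 4.0.16 (R 4.3.3): counts summed per embryo, or per embryo and class with an embryo block, filterByExpr, TMM scaling, one quasi-likelihood fit over the whole table and Benjamini-Hochberg adjustment at 0.05. The SE printed with an edgeR log2 fold change is that fold change, without its sign, over the square root of its F statistic. For a gene at 0 in a group it is no measure of precision, since the fold change there depends on the prior count. Alternatives were RLE scaling, every gene with a count, DESeq2 1.42.0, fits without each embryo, without the identifier run, and with only the classes or stages compared. On simulated data in which genes changed by 2 on the log2 scale, the test recovered 70.6% in the 110-cell a-line against b-line contrast, 67.7% in the summed 64-cell neural against epidermis contrast, 55.8% in the U0126 embryos and 4.59% in the summed U0126 interaction. Thinning drew 10000 UMIs per cell. Intervals (95%) and floors of 3 counts cover counting error only. Where embryo values are said not to overlap, the share of all genes that do so was not counted. Python 3.11.15, numpy 2.4.6, pandas 2.3.3, scipy 1.17.1 and matplotlib 3.10.9 were used. The genes, lists and added contrasts were chosen with earlier results of these data known. By the naming rule every gene of the list, the nearest genes outside it and the 5 genes most like its mean are named; the likeness to each gene was added. Marker lists were prepared by name and 0 identifiers could be matched, so no list is reported, and no sequence is shown.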

Additional observations from a re-analysis of the deposited data

Results flagged for a closer look

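One of the 5 2-cell embryos stood apart for ENSCSAVG00000010848, with 7.81 CPM against 0 CPM in the other 4. That value is a single UMI. A group with a count in 1 embryo and 0 in the others always meets this criterion, so the flag says nothing beyond that UMI. The 2 groups of embryos examined were those large enough for the criterion in which values differed.

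The animal over vegetal contrast of ENSCSAVG00000010848 at 64 cells differed between U0126 and untreated embryos by -8.70 on the log2 scale (SE 1.30, edgeR adjusted p = 0.00501, all animal and all vegetal cells summed). U0126 columns are reads and untreated columns UMIs, and the part of this difference in the result was not tested. With 1 vegetal UMI in the untreated embryos, the size of the contrast depends on the prior count and its SE is no measure of precision.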

How the results depend on the processing

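Both genes stayed in the list under a minimum of 20 or 50 CPM, a factor of 2 or 4, means over embryos and each embryo left out, and the list held 3 genes at a factor of 2 and 2 to 4 genes without 1 embryo. Over 25 values of the pair, 14 of them called, the alternatives gave 199 values: 174 kept direction and side of the threshold, 20 lost the call, 3 gained it and 2 changed sign, and 17 alternatives gave no value, mostly because ENSCSAVG00000006812 fell below the filter on low counts. Contrasts between classes were taken within embryos, with the embryo as a block. Between stages and treatments no paired analysis was possible because the replicate numbers of the labels count libraries, and no embryo occurs in 2 groups.

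DESeq2 ended 7 calls with the same direction. The log2 fold changes were -7.60 for ENSCSAVG00000006812 in the 110-cell a-line against b-line contrast, -6.76 for ENSCSAVG00000006812 and 5.65 for ENSCSAVG00000010848 in that contrast at 64 cells, 3.82 for ENSCSAVG00000010848 in the a-line against epidermis, 6.18 for ENSCSAVG00000006812 in the b-line against epidermis, and 5.02 for ENSCSAVG00000006812 and 3.15 for ENSCSAVG00000010848 with both lines summed against epidermis. The cause was not tested.

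Without 1 embryo, the log2 fold change of ENSCSAVG00000006812 ran from -7.88 to -7.62 in the 64-cell a-line against b-line contrast, from 3.71 to 6.10 with both lines summed against epidermis, and from -5.91 to -4.45 under U0126. Its U0126 interaction changed sign, from -0.48 to 1.36, and was called in no such fit. For ENSCSAVG00000010848 these ranges were 5.25 to 8.35, 2.35 to 3.92, -4.59 to -3.85 and, for the interaction, -11.23 to -8.31, and 2.20 to 3.14 in the anterior against posterior epidermis.

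Counts of genes called moved too. For 64-cell neural cells against epidermis they were 12 as reported, 19 with every gene with a count, 21 with both lines summed, and 4 to 18 without 1 embryo. The 110-cell a-line against b-line contrast called 21, 10 with DESeq2, 38 with the neural classes alone and 13 to 19 without 1 embryo. At 64 cells 33 to 44 genes against the mean of other classes were called without 1 embryo. The 32-cell animal against vegetal contrast called 30, and 14 without the identifier run. The steps called 146 (DESeq2), 267 (only the 2 stages) and 50 to 89 (without 1 embryo) from 8 to 32 cells, and 362 to 674 from 4 to 64 cells. U0126 called 1191 in whole embryos, 1889 with DESeq2 and 38 to 1488 without 1 embryo; the interaction with classes averaged called 1, 5 with every gene with a count, 3 with DESeq2, 17 summed, and 0 to 8 without 1 embryo. Leaving out a 32-cell embryo was not run for the class contrast, which would have left no residual degrees of freedom between embryos.

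The depth limits both genes: a b-line cell of the 64-cell stage held a median of 4 UMIs of ENSCSAVG00000006812, and 5 of 9 such cells still showed it at 10000 UMIs.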
